A study of Bos taurus with 10 samples.

Results

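DNMT3B and DNMT3L belong to the machinery that places new methyl groups on DNA. Each gene was read by 1 probe set with values, 220668_s_at for DNMT3B and 220139_at for DNMT3L. Both were chosen by the gene symbol of the platform annotation, and they were 2 of the 6732 genes that 1 or more probe sets with values named alone (10219 probe sets had values). No other probe set of the platform carried either symbol, alone or among several. Total RNA of cattle was hybridised to an array designed for human transcripts. Of the 10 arrays, 3 held RNA labelled as a pool of IVF embryos, which are produced by fertilising oocytes outside the body. The other 7 held 1 tissue each, namely brain, heart and muscle, then kidney and liver, and lastly lung and spleen. Breed, sex, embryo stage, pool size and any treatment were not used here. The labels call the brain adult, and the title of the series calls the tissues adult as a whole. Whether the 3 embryo arrays hold separate pools is unknown, and differences among these 3 could be technical. Where the 7 tissues form 1 group, limma p-values rest on the spread among embryo arrays and on differences between tissues. Where the embryo arrays are averaged as 1 sample, that spread comes from the tissues alone. With 1 array for each tissue, variation between animals within a tissue is not measured.

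DNA methylation in mammals is laid down by DNMT3A and DNMT3B, the de novo methyltransferases, and is copied after each replication by DNMT1. DNMT3L resembles both enzymes but lacks catalytic activity. It binds them, stimulates them and directs them to histone H3 that is not methylated at lysine 4. In early embryos, methylation inherited from the gametes is largely removed and a new pattern is then set, and DNMT3B is known in several mammals as a gene of pluripotent cells of the embryo.

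Probes designed for human transcripts read bovine RNA with unequal match, so levels are compared here between arrays. Where probe sets are set side by side, it is their differences between embryos and tissues that are compared, not their levels. In bulk RNA, fewer expressing cells and less RNA per cell cannot be told apart. The bovine RefSeq gene table (ARS-UCD2.0) lists both genes, DNMT3B with 7 transcripts and DNMT3L with 1. The suffix _s of the DNMT3B probe set marks a design that recognises several transcripts. No sequence of these probe sets or transcripts was used here.

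The median deposited intensity of an array lay between 99.3 and 221.1, and precision is limited by how few arrays there are. Of the embryo markers, 6 of 6 bright probe sets (above the 75th percentile on at least 1 array) were highest in embryos, among them KRT8, SOX2 and GATA6, while POU5F1, NANOG and CDX2 had no probe set of their own among the values used. The same held for 4 of 4 brain, 6 of 6 heart, 8 of 8 liver and 3 of 4 muscle probe sets in their tissues, for 5 of 8 in lung and 1 of 2 in kidney. All 5 in lung were of the gene SFTPC. SFTPB read 195 in lung and 289 in spleen, and AGER 326 in lung and 599 in muscle. The brighter PDPN probe set read 552.5 in lung and 844 on the first embryo array. For kidney it was CDH16, while CUBN read 144 in kidney and 807 in spleen. Dimmer probe sets of brain, liver and lung were not counted. Of these, GAD1 and 1 MBP probe set were brightest in brain, at 203 and 177. The rest were brighter elsewhere. GFAP read 126 in brain and 233 in lung, and the other MBP probe set 133 in brain and 212 on the third embryo array. ALB by 1 probe set read 75.9 in liver and up to 212 in embryos. CLDN18 read 74.5 in lung and 241 in liver, and 1 PDPN probe set 112 in lung and 170 on the third embryo array. The spleen label was not borne out by its markers, since CD22 alone of 6 had values and neither of its 2 probe sets was highest in spleen. Among the embryo arrays, the Spearman correlation across tested probe sets was 0.92 between the first and the second, 0.87 between the second and the third and 0.80 between the first and the third. Embryos correlated with tissues at 0.22 to 0.49. RNA integrity, read as the 5′ over 3′ signal of control transcripts, was 0.461 to 0.488 in embryos and 0.287 to 0.471 in tissues by GAPDH. By ACTB it was 0.566 to 0.728 in embryos and 0.311 in lung to 2.65 in heart, with muscle at 1.52, and its part in the results was not tested.

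DNMT3B separated embryos from every adult tissue. It read 195.6, 266.1 and 340.6 as deposited on the 3 embryo arrays. On the tissue arrays it read 18.3 in brain, 7.4 in heart, 32.6 in kidney, 23.3 in liver, 24.5 in lung, 26.7 in muscle and 8.3 in spleen. The lowest embryo value was therefore far above the highest tissue value before any scaling. The embryo values differed among themselves in step with the brightness of their arrays, since relative to the array median they were 1.58, 1.65 and 1.54. In tissues the same ratio ran from 0.0558 in spleen to 0.253 in kidney.

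After quantile normalization the 3 embryo arrays were close together at 231, 246 and 240, a mean of 239 ± 7.59 (SD, n = 3). The tissues averaged 20.3 ± 10.6 (SD, n = 7), and the ratio of the means was 11.8 on the linear intensity scale. How the authors corrected for background is unknown here, so this ratio holds only for the values as deposited and scaled. By rank within its own array, DNMT3B lay at the 71.7, 74.0 and 73.1 percentile in embryos. In tissues it lay between the 4.61 percentile in spleen and the 12.5 percentile in kidney, near the bottom of each array. Whether a probe set at that rank was above background was not examined here.

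**Figure D1:**
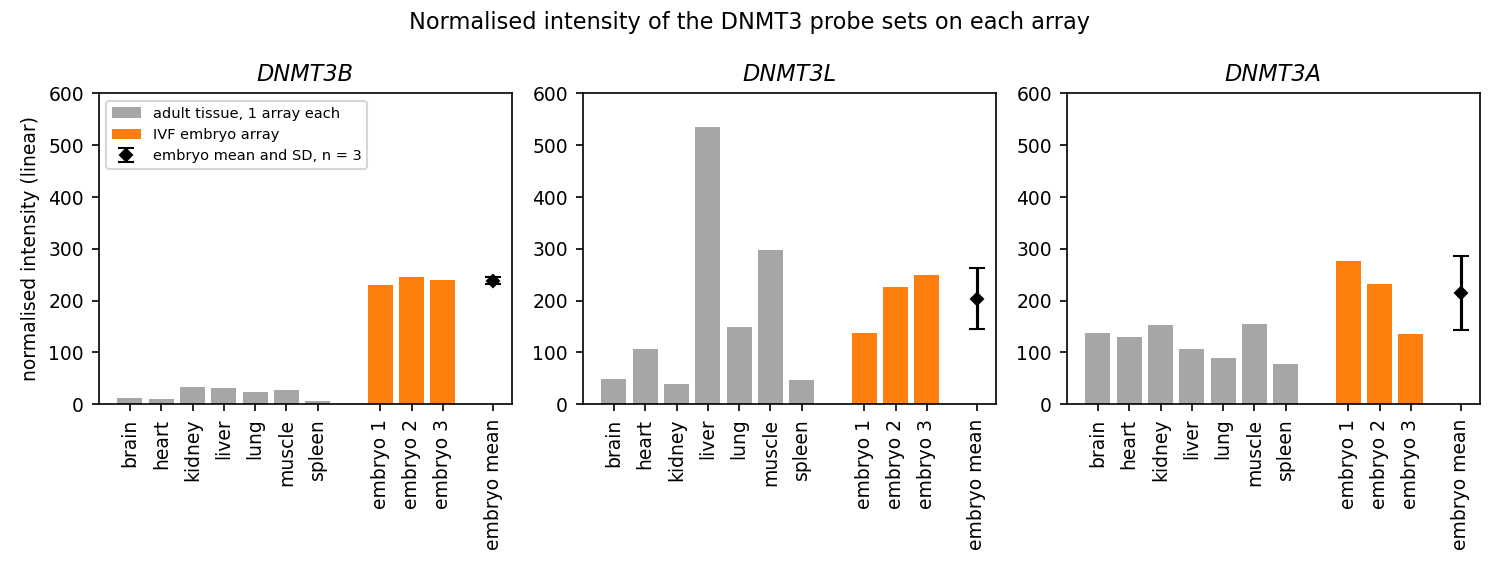
Normalised intensity (linear scale) of the DNMT3B, DNMT3L and DNMT3A probe sets on each of the 7 tissue arrays (grey bars) and the 3 embryo arrays (orange bars), with the embryo mean and SD (diamond and bar, n = 3). DNMT3B is bright on the 3 embryo arrays alone, at 231 to 246, DNMT3L is brightest in liver at 534, and DNMT3A overlaps between embryos and tissues; heights are not compared between panels.

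DNMT3L did not separate embryos from tissues. Its deposited values were 115.3, 243.3 and 352.9 on the embryo arrays. In tissues it read 62.4 in brain, 78.8 in heart, 38.2 in kidney, 418.7 in liver, 132.3 in lung, 315.5 in muscle and 50.4 in spleen. Liver was above all 3 embryo arrays and muscle above the first and the second, while brain, heart, kidney and spleen lay below all of them. Relative to the array median, the embryo values were 0.930, 1.51 and 1.60, so the first embryo array was dimmer for DNMT3L than the other two even after its own brightness was allowed for.

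After normalization DNMT3L read 137, 226 and 249 on the embryo arrays, a mean of 204 ± 59.2 (SD, n = 3). The tissues averaged 174 ± 183 (SD, n = 7), with 534 in liver, 299 in muscle, 149 in lung, 107 in heart, 47.8 in brain, 46.0 in spleen and 38.0 in kidney. Lung therefore fell inside the embryo range, and liver and muscle were above it. Within its own array, DNMT3L stood at the 92.9 percentile in liver and the 80.8 percentile in muscle. On the embryo arrays it stood at the 47.1, 70.7 and 74.6 percentile, and at 14.2 in kidney. The tissue arrays thus spanned most of the range of ranks for DNMT3L.

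**Figure D2:**
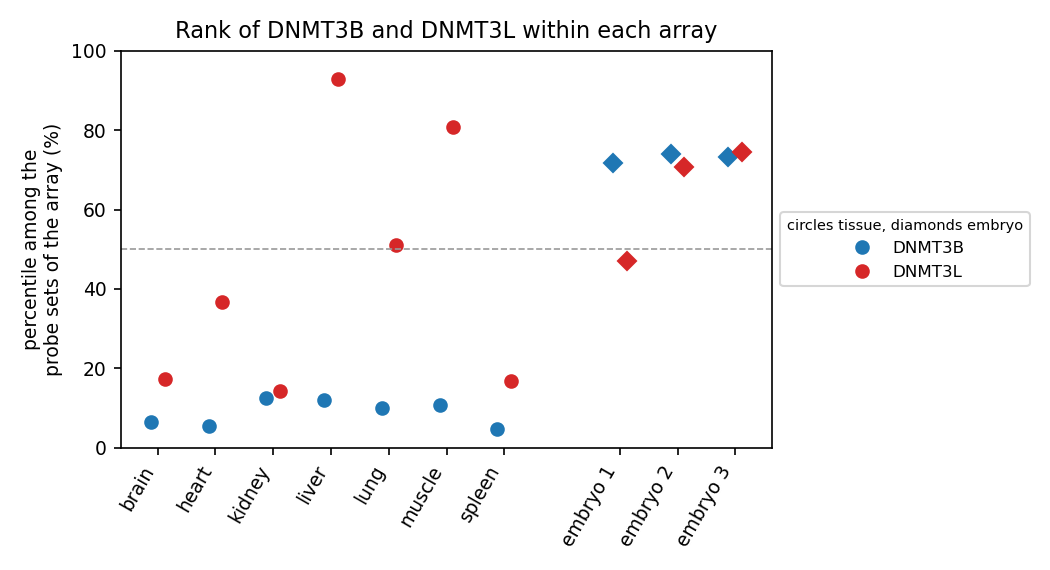
Percentile of the DNMT3B (blue) and DNMT3L (red) probe sets among the probe sets of each array, computed from the deposited intensities and so untouched by scaling between arrays, with the array median as a dashed line. DNMT3B lies at 4.61 to 12.5 in the 7 tissues (circles) and at 71.7 to 74.0 in the 3 embryo arrays (diamonds), while DNMT3L reaches 92.9 in liver and 80.8 in muscle.

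Embryos and tissues as 2 groups, the contrast the series is titled for, were compared with limma across 6772 probe sets that exceeded their array's median on at least 3 arrays. Differences are given as log2(intensity + 72), and the added 72 shrinks them where a probe set is dim. DNMT3B rose in embryos by 1.76 ± 0.23 (SE; 95% interval 1.25 to 2.26; limma adjusted p = 0.000516), higher in 3 of 3 embryo arrays than in all 7 tissues. Of all tested probe sets, 8.92% were called higher and 3.22% lower in this comparison, and 12.5% had all 3 embryo arrays above all 7 tissues, so the call is one of 604. By size of the difference DNMT3B was number 134 of 6772, with 1.96% of probe sets larger.

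DNMT3B exceeded the array median on the 3 embryo arrays and nowhere else, so it entered the test through the group in which it was high. Without the filter, over 10186 probe sets of which 5.54% were called higher and 1.75% lower, its limma adjusted p was 0.000916. With the embryo arrays averaged and counted as 1 sample, the limma adjusted p was 0.0117 (1.08% called higher and 0.0738% lower), and with that averaging and no filter together it was 0.363, a fit in which 0.0295% were called higher and 0% lower. The exact permutation of the 120 ways to pick 3 of 10 arrays gave a two-sided p of 0.00833, the smallest it can give. It counts each embryo array as a separate unit, although whether they hold separate pools is unknown.

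DNMT3L did not pass. Its difference was 0.42 ± 0.49 (SE; 95% interval -0.64 to 1.49; limma adjusted p = 0.602), and the two-sided exact permutation p was 0.492. The interval runs from lower to much higher in embryos, so the test does not show that embryos and tissues had like levels. Without the liver array the difference was 0.70 (limma adjusted p = 0.243).

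DNMT3A, the other de novo methyltransferase, had 1 probe set with values. It read 277, 232 and 136 on the embryo arrays, a mean of 215 ± 72.1 (SD, n = 3), and 76.7 in spleen to 154 in muscle, a mean of 121 ± 30.6 (SD, n = 7). The first and the second embryo array were above every tissue, and the third was below brain, kidney and muscle. The difference was 0.55 ± 0.21 (SE, limma adjusted p = 0.105), and with values as deposited it was 0.74 with limma adjusted p = 0.0482. The 3 genes thus ordered the embryo arrays differently, with DNMT3A brightest on the first and DNMT3L brightest on the third.

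Whether the 3 embryo-to-tissue differences differed from each other was tested on the difference of log2 values within each array, by exact permutation of the arrays, two-sided, over 3 pairs of genes. DNMT3B minus DNMT3A was 0.15 ± 0.40 (SD, n = 3) in embryos. In tissues it was -1.05 ± 0.24 (SD, n = 7), and all 3 embryo arrays were above all tissues (exact p = 0.00833, the smallest possible, adjusted 0.025). DNMT3B minus DNMT3L was 0.19 ± 0.30 (SD, n = 3) against -1.14 ± 0.86 (SD, n = 7), with exact p = 0.0333, adjusted 0.05, which was not under the threshold. Without the liver array that adjusted p was 0.0357 (exact permutation). DNMT3L minus DNMT3A differed by -0.13 between embryos and tissues (exact p = 0.842). The permutation counts each embryo array as a separate unit, although whether they hold separate pools is unknown. On this scale and over these arrays, the DNMT3B probe set differed more between embryos and tissues than the DNMT3A probe set. Its excess over the DNMT3L probe set was at the edge of the threshold. The size of such an excess depends on the offset: for DNMT3A it was 0.48 with an offset 4 times larger and 2.88 with an offset of 1. Since probes also match unequally, the test does not show that the RNA of 1 gene rose more than that of another.

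A fit with 8 groups set embryos against each tissue in turn. With 1 array per tissue its spread comes from the embryo arrays alone, with 2 residual degrees of freedom before limma's moderation, and each tissue is assumed to vary like them. The p-values of this fit therefore set single arrays against a spread that may be technical, measure no variation between animals, and describe these arrays rather than the tissues. DNMT3B was higher in embryos than in each of the 7 tissues, by 1.97 over spleen, 1.93 over heart, 1.88 over brain, 1.69 over lung, 1.66 over muscle, 1.59 over liver and 1.57 over kidney (SE 0.16 each). The limma adjusted p ran from 0.0015 for brain to 0.00332 for kidney. The share of all tested probe sets called higher in embryos was 17.6% against brain, 18.4% against heart, 12.9% against kidney, 19.9% against liver, 12.1% against lung, 21.7% against muscle and 8.67% against spleen.

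For DNMT3L the sign of the difference depended on the tissue array, and no call held under every alternative. It was higher in embryos than in kidney by 1.30 ± 0.29 (SE, limma adjusted p = 0.0267), than in spleen by 1.20 (limma adjusted p = 0.0412) and than in brain by 1.18 (limma adjusted p = 0.0306). Against liver it was lower by a log2 difference of -1.16 (limma adjusted p = 0.0328), where 10% of tested probe sets were called lower in embryos. Differences from heart (0.60, limma adjusted p = 0.161), lung (0.30, 0.497) and muscle (-0.45, 0.268) did not pass. The 4 DNMT3L calls rest on the filter: without it the limma adjusted p was 0.0598 for brain, 0.0623 for kidney, 0.0598 for liver and 0.0868 for spleen. They were also lost without the second embryo array, at 0.129, 0.125, 0.109 and 0.176 in the same order (limma adjusted p). Without the first embryo array the heart difference passed, at 0.79 (limma adjusted p = 0.0499).

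**Figure D3:**
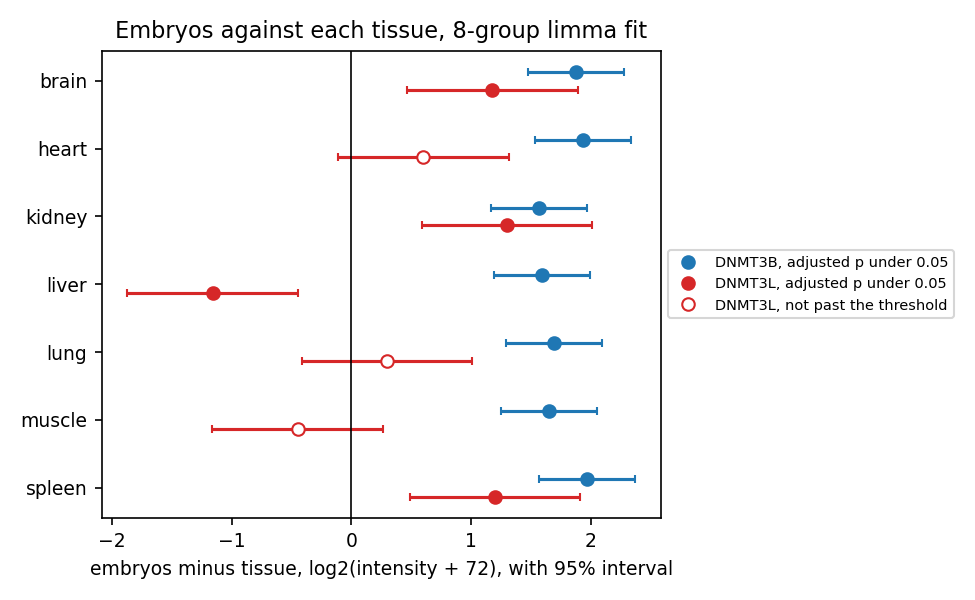
Log2 difference of embryos minus each tissue for DNMT3B (blue) and DNMT3L (red) from the 8-group limma fit, on the log2(intensity + 72) scale with 95% intervals; filled points have an adjusted p under 0.05. The 7 DNMT3B differences lie between 1.57 and 1.97, and those of DNMT3L run from -1.16 against liver to 1.30 against kidney.

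In the order of levels, DNMT3B ran embryo, kidney, liver, muscle, lung, brain, heart and spleen. Of its 7 neighbouring pairs 1 was called, embryo against kidney, and none of the 21 pairs of tissue arrays was called by limma or had an unadjusted p under 0.05. DNMT3L ran liver, muscle, embryo, lung, heart, brain, spleen and kidney, and 0 of its 7 neighbouring pairs were called or had an unadjusted limma p under 0.05, the lowest limma adjusted p being 0.201 for liver against muscle. Between tissue arrays farther apart in that order limma called 7 of 21 pairs for DNMT3L, and 12 had an unadjusted p under 0.05. Each pair is 1 array against 1 array, so these calls do not show a difference between the tissues.

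Those 7 pairs all had the liver or the muscle array as the brighter one. Liver was above kidney by 2.46, above spleen by 2.36, above brain by 2.34 and above heart by 1.76 (limma adjusted p = 0.0184, 0.0207, 0.0114 and 0.0274), and these 4 were also called without the filter. Muscle was above kidney by 1.75, above spleen by 1.65 and above brain by 1.63 (limma adjusted p = 0.0386, 0.0311 and 0.0449). The shares of tested probe sets called in either direction were 14.4%, 11.8%, 22.7% and 17.6% for the liver pairs and 10.2%, 20% and 10.6% for the muscle pairs, in the same order. For the 14 pairs called for neither gene the shares were 12.9% for brain against heart, 5.55% against kidney, 14.3% against lung and 13.1% against spleen. For heart they were 10% against kidney, 13.2% against lung, 1.59% against muscle and 17% against spleen, and for kidney 9.89% against lung and 7.49% against spleen. For liver they were 10.7% against lung and 20.4% against muscle, and for lung 20.1% against muscle and 1.03% against spleen. Liver was the brightest of all 10 arrays for 9.76% of tested probe sets and muscle for 10.6%, each close to an even share over 10 arrays.

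Genes whose values were most like those of a member were named by Pearson correlation of log2 values over the 10 arrays, among 4725 genes. For DNMT3B they were TFAP2C, a transcription factor of trophectoderm (r = 0.99), SIRT1, a protein deacetylase (0.99), ZNF552 (0.99), S100A5, a calcium-binding protein (0.99), and HSD17B14, a steroid dehydrogenase (0.99). These 10 points form an embryo cluster and a tissue cluster, so each r mainly restates that a gene was bright on the embryo arrays. TFAP2C averaged 6.02 ± 4.38 (SD, n = 7) in tissues and 353 ± 13.7 (SD, n = 3) in embryos by its brightest probe set. Its other probe set read 259, 275 and 28.6 on the embryo arrays against 3.41 in liver to 48.1 in lung, so the third embryo array lay among the tissues. Within the 7 tissues the correlations with DNMT3B ran from -0.40 for S100A5 to 0.56 for HSD17B14.

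For DNMT3L the most alike were UBFD1 (r = 0.87), CNOT9, a subunit of the CCR4-NOT deadenylase complex (0.86), ZMAT3 (0.84), LSM12 (0.81) and MFAP3 (0.81). Over the 7 tissues alone the correlations were 0.87 to 0.89, which restates the choice of these genes, since the tissues carry most of the range of DNMT3L. UBFD1 read 739 in muscle and 617 in liver, and 464 ± 77.9 (SD, n = 3) in embryos, and LSM12 read 424 in liver and 376 in muscle. Between DNMT3B and DNMT3L themselves, r was 0.33 over 10 arrays and 0.52 over the 7 tissues.

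The other genes of DNA methylation were taken from a list of 75, ordered by role. Of these, 41 had values and 30 were tested, and beside the members 6 of 28 rose and 1 fell. Over all 4725 tested genes, 7.92% rose and 3.2% fell. The median difference of the 28 was 0.34 and that of all tested genes 0.03. Of the 6 that rose, SUZ12, KDM1A and SHMT2 exceeded the array median on the 3 embryo arrays alone and so entered the test through the group in which they were high, and these counts and medians cover the tested genes only. Without the filter, over 39 list genes beside the members, 8 were called higher and 0 lower. Of all 10186 probe sets in that fit, 5.54% were called higher and 1.75% lower. The median difference of the 39 genes was 0.07, and it was -0.04 over all probe sets, where a gene can count more than once. Among the methyltransferases, DNMT1 was not analysed here. TRDMT1, which methylates transfer RNA, lay below the filter. In tissues it averaged 117 ± 62.0 (SD, n = 7) and in embryos 76.4 ± 13.3 (SD, n = 3).

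Of the 2 tested partners of maintenance methylation, PCNA, the sliding clamp that recruits DNMT1 to replicating DNA, rose. It read 345, 375 and 294 on the embryo arrays against 21.6 in liver to 175 in spleen, a difference of 1.54 ± 0.31 (SE, limma adjusted p = 0.00691). All 3 embryo arrays were above all 7 tissues, as for 12.5% of tested probe sets. USP7, a deubiquitinase that acts on DNMT1, did not pass by its brightest probe set (-0.26), although another of its 3 probe sets was called higher at 0.76 (limma adjusted p = 0.0139). UHRF1 and HELLS were not analysed here.

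Of the 6 tested genes that oxidise or repair methylated cytosine, 0 were called by limma and 0 had an unadjusted p under 0.05. TET1, the dioxygenase that converts methylcytosine to hydroxymethylcytosine, lay below the filter. It read 145, 190 and 72.3 on the embryo arrays, and 40.8 in brain, 22.9 in lung, 12.8 in spleen and 5.68 or less in the other tissues. All 3 embryo arrays were above all tissues, as for 9.45% of probe sets without a filter, and in the fit without a filter its difference was 1.27 (limma adjusted p = 0.0311). TET2 and TET3 were not analysed here. EZH2, the methyltransferase of Polycomb complex 2 (named after its values were seen), was the other of 11 list genes below the filter that was called in that fit, at 1.36 (limma adjusted p = 0.0142).

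MBD2, a reader that binds methylated DNA, fell. It read 71.2, 82.0 and 42.8 on the embryo arrays against 85.7 in brain to 678 in spleen, a difference of -1.46 ± 0.41 (SE, limma adjusted p = 0.0394), and embryos lay just below the lowest tissue, as for 6.62% of tested probe sets. Its other tested probe set differed by -0.25 (limma adjusted p = 0.345), and a further probe set below the filter read 110 in embryos and 106 in tissues. The call was lost without any 1 of the embryo arrays (limma adjusted p = 0.125, 0.127 and 0.164) and without the filter (0.0535), and also without heart, kidney, lung or muscle (0.0502, 0.0621, 0.0601 and 0.0512). MBD3 and ZBTB38, the other tested readers, differed by -0.06 and 0.07 and did not pass.

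Among 11 tested histone modifiers and partners 3 rose and none fell by the brightest probe set of each gene. SUZ12 and EED, core subunits of Polycomb complex 2, rose by 0.97 ± 0.17 and 1.02 ± 0.20 (SE, limma adjusted p = 0.00402 and 0.00691; 0.00501 and 0.00981 without the filter). SUZ12 read 282, 233 and 205 on the embryo arrays against 56.3 to 101 in tissues, and EED 569, 455 and 390 against 117 to 234. KDM1A, a histone H3 lysine 4 demethylase, read 313, 275 and 198 against 74.8 to 143 and rose by 0.89 ± 0.18 (SE, limma adjusted p = 0.00742; 0.0112 without the filter). For all 3 the first embryo array was the brightest and the third the dimmest, as for DNMT3A and unlike DNMT3L. PIAS1, a SUMO ligase, did not pass by its brightest probe set (-0.69, limma adjusted p = 0.285), but another of its 3 probe sets was called lower at -1.45 (limma adjusted p = 0.0294). That probe set read 30.5, 7.66 and 0.31 on the embryo arrays against 47.2 to 299 in tissues. TRIM28, the corepressor that protects imprints, read 307 ± 44.5 (SD, n = 3) against 206 ± 84.4 (SD, n = 7) and did not pass (0.51, limma adjusted p = 0.277). Without the first embryo array the calls of EED and KDM1A were lost (limma adjusted p = 0.0542 and 0.0706), and that of KDM1A also without the second (0.0668).

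Of 5 tested genes of methyl donor supply 2 rose. SHMT2, which feeds one-carbon units from serine in mitochondria, read 235, 269 and 368 on the embryo arrays against 41.2 to 98.3 in tissues, a difference of 1.35 ± 0.20 (SE, limma adjusted p = 0.00127; 0.00145 without the filter). GNMT, which consumes S-adenosylmethionine to methylate glycine, read 434, 745 and 446 against 3.26 in spleen to 264 in liver, a difference of 2.45 ± 0.44 (SE, limma adjusted p = 0.0039). Both had all 3 embryo arrays above all 7 tissues, as did 12.5% of tested probe sets. MAT2A and AHCY, which make S-adenosylmethionine and clear its product, did not pass (-0.34 and -0.50). A second MAT2A probe set, below the filter, read 194, 261 and 130 on the embryo arrays against 26.6 to 105 in tissues, and in the fit without a filter its difference was 1.14 (limma adjusted p = 0.0182), opposite in sign to that of the brightest. With the embryo arrays averaged as 1 sample, the calls of the other list genes were lost. That of DNMT3B, which had entered the test through its embryo values, was lost too once the filter was left out. Without the second embryo array, the call of PCNA was lost (limma adjusted p = 0.0561).

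**Figure D4:**
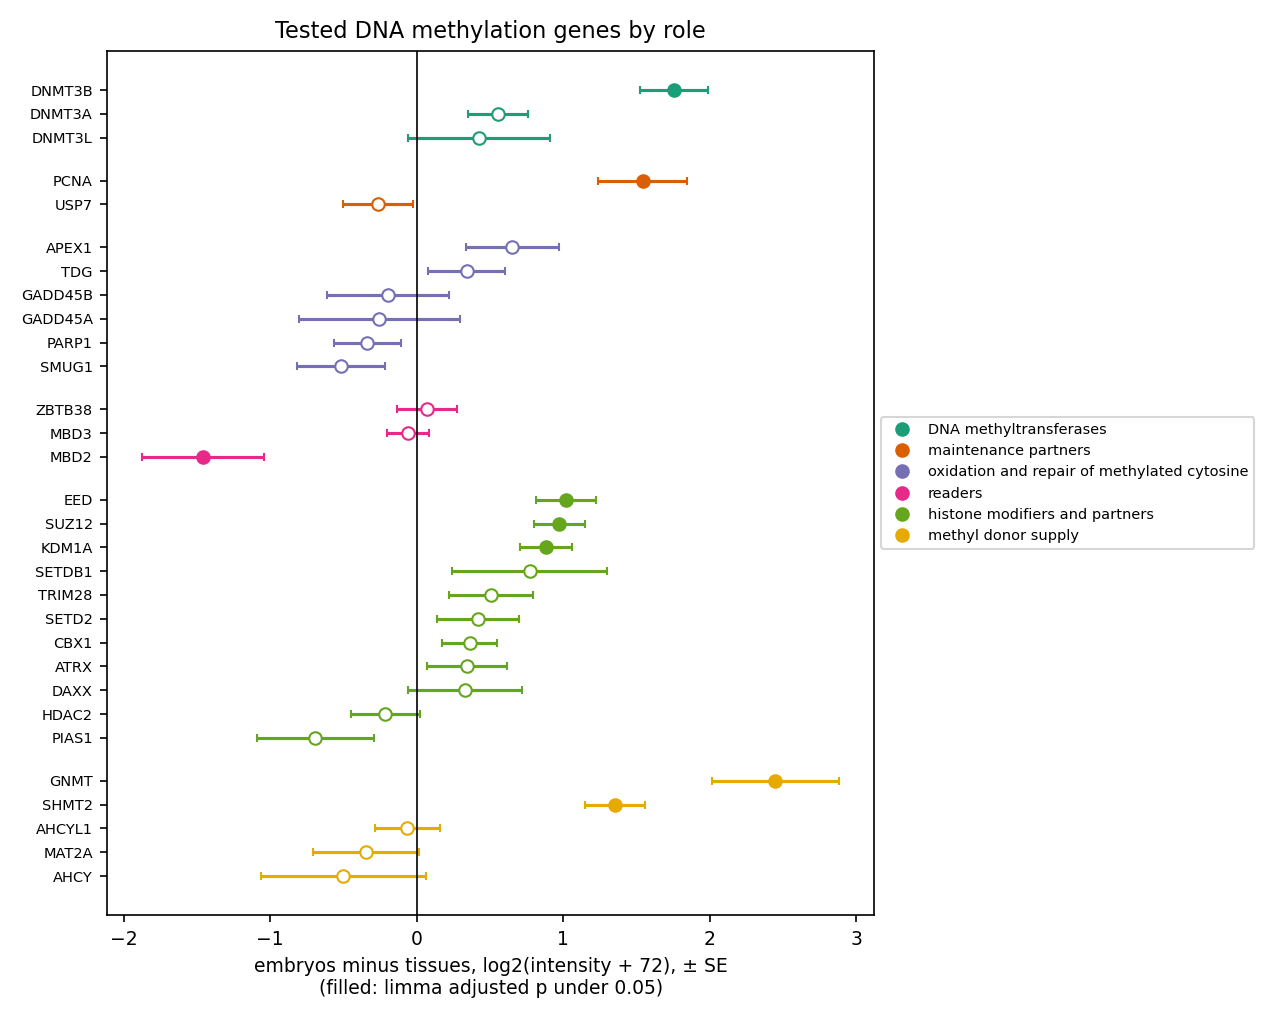
Embryo minus tissue difference on the log2(intensity + 72) scale, with its SE, for the 30 tested genes of DNA methylation in 6 roles; filled points have a limma adjusted p under 0.05. Beside DNMT3B, the filled points are PCNA, EED, SUZ12, KDM1A, GNMT and SHMT2 on the higher side and MBD2 on the lower.

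Markers of other cells moved with the embryo arrays to different degrees. Of the 7 genes of dividing cells 4 had values, and their summed intensity was 1362 to 1648 in embryos and 539 to 1259 in tissues, with liver highest among tissues. CCNB1, a mitotic cyclin, read 249, 290 and 458 in embryos and at most 55.9 in tissues, while MKI67 was brightest in liver for 1 of its 2 probe sets, at 880. PCNA, of the same list, was lowest in liver at 21.6, so these genes ordered the tissues differently.

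Of the 6 oocyte and germ cell markers 3 had values, with sums of 610 to 1201 in embryos and 174 to 898 in tissues. DDX4 read 629, 363 and 269 in embryos and at most 10.2 in tissues. BMP15 and DAZL were instead bright on the third embryo array (343 and 589) and in muscle (355 and 542). BMP15 was also bright in lung (323), and in liver, where DNMT3L was brightest, they read 107 and 221. CD22, a spleen marker, was also brightest on the third embryo array and in muscle by 1 of its 2 probe sets (226 and 289). In a leave-out chosen after these values were seen, without the third embryo array and muscle together, DNMT3L differed by 0.42 (limma adjusted p = 0.751) and DNMT3B by 1.71 (0.00186). Of the 6 granulosa markers 3 had values, with sums of 422 to 613 in embryos and 294 to 478 in tissues. Of the 4 blood markers HBB and ALAS2 had values, with sums of 821 to 1078 in embryos and 199 to 624 in tissues, and 2 of the 3 HBB probe sets were called higher in embryos. The third HBB probe set went the other way, at 53.4 to 61.4 in embryos, below all 7 tissues (up to 242), and ALAS2 overlapped at 32.9 to 110 against 19.9 to 261. The part of these cells in the levels of DNMT3B and DNMT3L was not tested.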

How the data were processed

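Total RNA was read on a human array, on 3 arrays labelled as IVF embryo pool and on 1 array for each of 7 tissues. The authors deposited intensities on a linear scale (found from the values), 1 value for each probe set on each array. How they scanned, background-corrected and scaled them is not given in the sources used. Of 22283 probe sets, 12064 were blank on every array. Groups came from sample titles.

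Trimmed means (2%) differed 1.90-fold between arrays, above a limit of 1.5, so they were quantile normalized, which hides differences in total signal. Values were taken as log2(intensity + 72), 72 being the arrays' median 25th percentile. Tests used probe sets that exceeded the array median on 3 or more arrays. The 33 manufacturer's controls were left out of tests. limma 3.58.1 (R 4.3.3; lmFit, eBayes with trend and robust, two-sided) was used with Benjamini-Hochberg adjustment over all tested probe sets and a threshold of 0.05. Symbols came from the human platform annotation; 8847 probe sets had 1 symbol, 479 several and 860 none, and those with several named no gene. The brightest tested probe set stood for a gene.

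Named genes were the members, the 5 genes most correlated with each, up to 4 called list genes per role with the largest difference, and DNMT1, DNMT3A, TET1, TET2, TET3, UHRF1, HELLS and TRIM28 whatever their result. USP7, PIAS1, TRDMT1, EZH2, MBD3, ZBTB38, MAT2A, AHCY, MAT1A, BHMT, EHMT1 and single marker genes were named after their values were seen. Members and lists were chosen with earlier results of these data known. Alternatives changed scaling, offset, filter, moderation, the source of spread, probe sets per gene, a 2-fold limit and the arrays used. Averaged embryos without a filter, leaving out the third embryo array with muscle, and the alternatives run on list genes, gene pairs and neighbouring levels were added after the data were seen. The exact permutation test between gene pairs was itself not among the planned tests. Fits were tested on simulated data with known changes. Plots used matplotlib 3.10.9 (Python 3.11.15).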

Additional observations from a re-analysis of the deposited data

Results flagged for a closer look

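Of 17 named genes checked for a tissue far from the other 6, 3 had a gap above 0.568 of the range of the 7 tissues. That limit assumes samples of 1 kind, which different tissues are not, so no rate by chance is given. Named genes outside the 17, EHMT1 among them, were not checked. GNMT read 264 in liver and 58.4 in lung, the next brightest tissue, and that gap was 0.788 of the whole range of the 7 tissues. SUZ12 read 56.3 in muscle and 82.6 in liver, the next dimmest, a gap of 0.589 of the range. ZNF552 read 5.48 in lung and 2.85 in muscle, a gap of 0.617 of the range, at levels near the bottom of every tissue array. Neither DNMT3B nor DNMT3L had such a tissue.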

How the results depend on the processing

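DNMT3B kept its rise over the tissues and its call in 21 of 22 alternatives, with differences from 0.77 (offset 4 times larger) to 3.68 (offset of 1); the exception, averaged embryo arrays with no filter, left 1.76 at limma adjusted p = 0.363. The filter at the 75th percentile is not among these 22, since neither DNMT3B nor DNMT3L passed it and so neither was tested there. The 7 differences of DNMT3B from single tissues passed in all 9 alternatives run on them. DNMT3L against the tissues as a whole passed in none of 22 (0.16 to 0.82). Of its calls against single tissues, brain was lost without the filter (1.18), with an offset 4 times larger (0.54) and as deposited (1.13), with 1.02 to 1.37 over the embryo leave-outs. Kidney was lost in the same settings (1.30, 0.58 and 1.42; 1.14 to 1.49), and so was spleen (1.20, 0.55 and 1.26; 1.04 to 1.39). Liver was lost without the filter (-1.16) and as deposited (-0.75; leave-outs -1.29 to -0.97), and heart, at 0.48 to 0.79 over the leave-outs, passed without the first embryo array. DNMT3B minus DNMT3L passed with an offset of 1 (2.87) and, among leave-outs from 1.11 to 1.52, without liver. DNMT3B minus DNMT3A, 0.94 to 1.39 over the leave-outs, was lost without any 1 embryo array, where 36 splits allow no adjusted exact p under 0.0833. DNMT3L minus DNMT3A turned to 0.011 with an offset of 1, to 0.22 without the first embryo array and to 0.16 without liver (-0.48 to 0.22 over the leave-outs), and never passed. Probe sets called higher and lower numbered 604 and 218. They numbered 1659 and 1283 with the spread of the embryo arrays alone, 356 and 135 with the brightest probe set per gene (fewer tested), 73 and 5 with averaged embryo arrays, and 257 to 634 and 55 to 296 with 1 array left out. List genes called higher numbered 7, against 3 with the filter at the 75th percentile and 1 with averaged arrays (5 to 7 over the leave-outs); those called lower numbered 1, against 4 with the spread of the embryo arrays alone, 0 with averaged arrays, without the filter or with the larger offset, and 0 to 1 over the leave-outs. With the filter at the 75th percentile PCNA, EED and GNMT stayed called. DNMT3B, SUZ12, KDM1A and SHMT2 did not pass that filter, so the smaller count of list genes there reflects genes not tested. Unless stated, the cause of a change was not tested. No paired analysis was possible because tissues carry no replicate number shared with embryos. No depth applies to arrays.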

Other observations

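MAT1A, which makes S-adenosylmethionine in adult liver, read 958 on the first embryo array and 22.5 and 20.8 on the others, and 4.22 in liver, the lowest of the 7 tissues (named after its values were seen). BHMT, a further enzyme of liver methyl metabolism, read 58.8 in liver and 69.3 to 139 on the other arrays. EHMT1, a histone H3 lysine 9 methyltransferase, read 330 in liver and at most 24.6 on every other array. All 3 probe sets lay below the filter, and none was called in the fit without it (limma adjusted p = 0.296, 0.764 and 0.71).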
